A study of Homo sapiens with 12 samples.

Results

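Genes of platelet-derived growth factor (PDGF), VEGF-C and fibroblast growth factor (FGF) signalling were followed in Ewing sarcoma cells with and without induced c-Jun and c-Fos. The 10 genes were taken by symbol from the 58721 genes of the count table, and they are the 4 PDGF ligand genes PDGFA, PDGFB, PDGFC and PDGFD, the PDGF receptor genes PDGFRA and PDGFRB, the ligand genes VEGFC and FGF2, and the FGF receptor genes FGFR1 and FGFR4. The cells were the Ewing sarcoma lines EW8 and TC71, whose genotype the labels give as WT. All 4 groups carried a lentiviral Tet-On system from which doxycycline switches on both AP-1 subunits, c-Jun and c-Fos, and all were grown in serum-containing medium. Doxycycline was given at 2000 ng/ml for 72 h in 3 libraries of each line, and the solvent DMSO (vehicle) in another 3 of each line, which makes 12 libraries of polyadenylated RNA. Cells given doxycycline but lacking the transgenes were not analysed here, so an effect of the drug and of c-Jun with c-Fos cannot be told apart.

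PDGF and FGF ligands bind receptor tyrosine kinases at the cell surface, which pair up, phosphorylate each other and signal through adaptors to the ERK and PI3 kinase cascades. PDGF-A and PDGF-C act mainly on the receptor encoded by PDGFRA, PDGF-D on that encoded by PDGFRB, and PDGF-B on both, and PDGF-C and PDGF-D are secreted as latent proteins that proteases must cut. VEGF-C, the lymphangiogenic member of the related VEGF family, signals through the receptor encoded by FLT4, and FGF2 needs heparan sulfate to bind FGF receptors. PDGFC is known as a gene that the fusion oncoprotein EWS-FLI1 turns on, and PDGFRB is known as a receptor of Ewing sarcoma cells.

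Library totals ran from 42860665 to 60853649 counts, with each mate of a read pair counted, and all 10 genes passed the filter on low counts, which left 21013 genes to test. JUN was higher with doxycycline by a log2 of 4.46 in EW8 and 5.19 in TC71, and FOS by 4.87 and 7.08 (adjusted p 1.93e-15, 2.36e-16, 4.23e-19 and 9.35e-21, edgeR quasi-likelihood test with Benjamini-Hochberg adjustment). All 9 markers of Ewing sarcoma cells examined, among them CD99, NKX2-2 and NR0B1, were above the floor in each group. A group was taken as at the floor for a gene when its libraries all held at most 6 counts, or 3 read pairs. TC71 vehicle replicate 1 stood apart, with a median absolute log2 difference of 0.245 from the other libraries of its group against 0.123 to 0.174 for the other 11 libraries, and with 2.812% of its counts on mitochondrial genes against 1.224% and 1.278% in the other TC71 vehicle libraries. In that library PDGFC was at 0.615, PDGFRB at 0.603 and FGFR4 at 0.587 of the mean of the other vehicle replicates, and PDGFRA was at 1.42 times it. Log2 values of the 10 genes that moved by 0.1 or more without it are given below with and without it, as are the shares and ratios of TC71 vehicle cells. The sources do not say whether the libraries came from separate cultures, so p-values measure only the spread between these libraries. In bulk RNA a change in the make-up of the culture and a change in the RNA of each cell cannot be told apart.

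VEGFC and FGF2 rose in both lines, PDGFRA in EW8, and PDGFRB fell in both. Of the genes searched for the motifs below, PDGFA, PDGFD and FGFR4 are not shown. Because the induced proteins bind DNA, stretches just before the start sites of VEGFC, FGF2, PDGFRA and PDGFRB are shown, and binding was not measured. They come from the 250 bases before the RefSeq start site in GRCh38.p14, limited to those outside the gene as counted, and are read 5′ to 3′ on the strand of the gene. For PDGFRA the 30 bases around a match to TGANTCA, the AP-1 motif with any base (N) at its centre, are shown, with the match in capitals. These 30 bases lie before the RefSeq start site but inside the first exon counted for that gene.
VEGFC, chr4:176792923-176793172, minus strand: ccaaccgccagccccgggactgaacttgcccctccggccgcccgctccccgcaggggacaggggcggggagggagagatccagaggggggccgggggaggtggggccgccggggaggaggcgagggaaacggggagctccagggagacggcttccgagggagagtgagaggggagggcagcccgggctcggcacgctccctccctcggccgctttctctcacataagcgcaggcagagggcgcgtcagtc
FGF2, chr4:122826581-122826707, plus strand: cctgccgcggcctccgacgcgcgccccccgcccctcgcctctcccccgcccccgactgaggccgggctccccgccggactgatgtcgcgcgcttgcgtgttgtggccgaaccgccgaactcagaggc
PDGFRA, chr4:54229250-54229279, plus strand: gactataacatTGAATCAattacaaaacgc
PDGFRB, chr5:150155873-150156095, minus strand: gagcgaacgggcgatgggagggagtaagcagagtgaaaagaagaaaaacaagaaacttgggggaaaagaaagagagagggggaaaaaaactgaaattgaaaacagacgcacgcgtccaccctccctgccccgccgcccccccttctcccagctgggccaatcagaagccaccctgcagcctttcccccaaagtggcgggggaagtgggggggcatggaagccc

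RefSeq windows of 300 bases, 250 before to 50 after a start site, were searched for 7 of the 10 genes, 12 windows in all. FGFR1, on chromosome 8, was left out by rule and not searched, and PDGFB and PDGFC had no window on hand. TGANTCA, searched on both strands, was found in 1 of the 12, the first PDGFRA window, where TGAATCA begins 32 bases before the start site. Its centre base is A, where the AP-1 consensus has C or G, so none of the 12 windows held the consensus. Over all 35116 windows of that length, 7.71% held TGANTCA with any centre base. The GGAA repeat GGAAGGAA, also searched on both strands, was in none of the 12 windows and in 3.67% of all windows. A match describes the letters only.

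With doxycycline VEGFC, FGF2 and PDGFC rose in both lines and PDGFRB fell in both. In EW8, 6 of the 10 genes were called higher (PDGFB, PDGFC, PDGFRA, VEGFC, FGF2 and FGFR1) and 1 lower (PDGFRB), where 11.4% and 3.38% of all tested genes were called in those directions. A gene was called when the adjusted p was under 0.05 and the log2 fold change beyond 1 in either direction. In TC71, 4 of the 9 genes with a fold were called higher (PDGFA, PDGFC, VEGFC and FGF2) and 2 lower (PDGFD and PDGFRB), against 12.3% and 3.67% of all genes. The remaining gene, PDGFB, was at the floor in both TC71 groups. The 10 genes were chosen with earlier results of these data known. The counts and medians here therefore describe them and are no test of the set. The median log2 fold change of the 10 genes was 1.31 in EW8, where that of all tested genes was -0.03. In TC71 it was 0.91 over the 9 genes, also with PDGFA at its bound, where that of all genes was 0. With no fold limit 7 genes passed as higher in EW8, PDGFA being the added gene, and 2 as lower, with FGFR4 added, against 21.9% and 22% of all genes. In TC71 5 of the 9 passed as higher, with FGFR1 added, and 3 as lower, with FGFR4 added, against 25.1% and 20.4%. The same genes were those whose libraries did not overlap between vehicle and doxycycline, 7 higher and 2 lower in EW8 and 5 and 3 in TC71, where 26.9% and 29.1% of all genes did not overlap in EW8 and 27.6% and 23.1% in TC71.

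**Figure D1:**
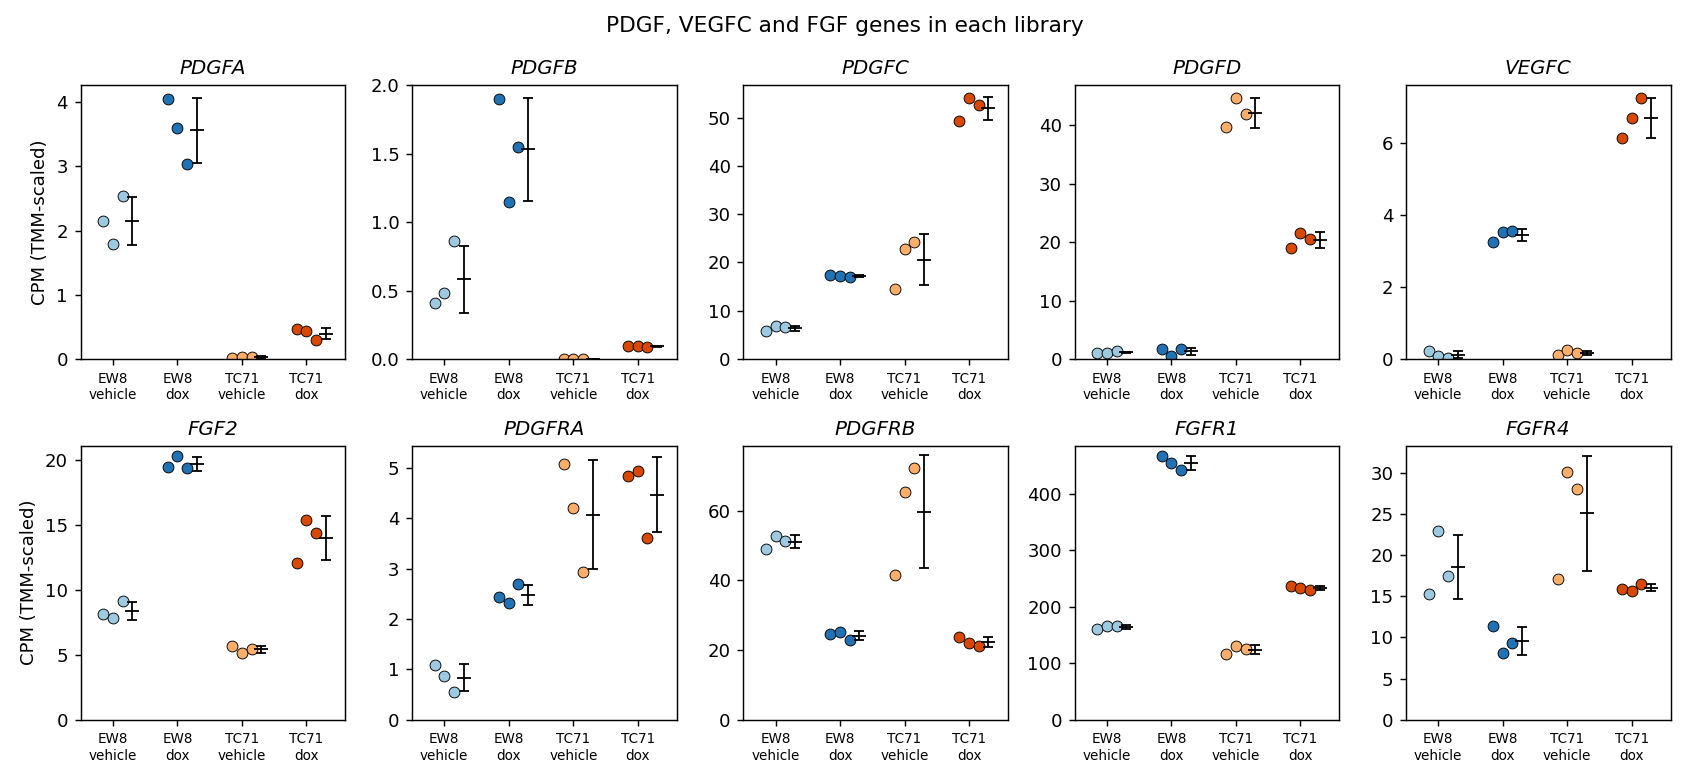
CPM (read counts divided by the scaled library size) of each of the 10 genes in every library, with the mean and SD (n = 3) of each group drawn beside its points. VEGFC, FGF2 and PDGFC sit higher in every doxycycline library (dox) than in every vehicle library of the same line, and PDGFRB sits lower.

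VEGFC (ENSG00000150630.3, chr4:176683538-176792727 in hg38, minus strand) had the largest fitted change of the genes with a fold in each line. In EW8 it was at 0.226, 0.0872 and 0.0359 CPM with vehicle, from 10, 4 and 2 counts, and at 3.26, 3.52 and 3.56 CPM with doxycycline. In TC71 the vehicle libraries were at 0.115, 0.242 and 0.155 CPM, from 6, 15 and 8 counts, and the doxycycline libraries at 6.16, 6.69 and 7.26 CPM. Each doxycycline library thus lay above each vehicle library, and the vehicle values rest on few read pairs. VEGFC was 30.4-fold higher with doxycycline in EW8 (log2 4.92, SE 0.38, adjusted p 5.65e-09 by the edgeR quasi-likelihood test) and 38.1-fold higher in TC71 (log2 5.25, SE 0.35, adjusted p 5.55e-10). Leaving out single libraries moved these to between 4.49 and 5.80 and between 4.96 and 5.61, the lowest TC71 value being that without vehicle replicate 1. VEGFC met the count minimum of the filter in 1 of 3 vehicle libraries of each line and in all 3 doxycycline libraries of each, so it entered the test through the groups in which it was higher. The responses of the lines differed by 0.33, with a 95% interval of -0.95 to 1.60 and an adjusted p of 0.791. That difference became -0.55 without EW8 vehicle replicate 1 and -0.01 without TC71 vehicle replicate 1. Under vehicle the lines differed by 0.63, TC71 minus EW8 (adjusted p 0.293), by 0.96 (adjusted p 0.121) without TC71 vehicle replicate 1, and by 1.51 (adjusted p 0.0256) without EW8 vehicle replicate 1. With doxycycline VEGFC was higher in TC71 than in EW8 by 0.96 (SE 0.26, adjusted p 0.00403), just under the fold limit, which it passed at 1.02 without TC71 doxycycline replicate 1.

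Endothelial cells answer VEGF ligands, and of 8 endothelial markers, 6 were called higher in each line and none lower, where 11.4% and 12.3% of all genes were called higher. In EW8 EMCN had a log2 fold change of -0.94 (adjusted p 0.00146), without overlap between the groups, and CDH5 did not pass (adjusted p 0.579). In TC71 EMCN and ROBO4 did not pass (adjusted p 0.0688 and 0.0726), and TEK, among those called, was at the floor in both groups. The summed level of the endothelial markers was 21.72 to 22.98 CPM in the EW8 vehicle libraries and 67.72 to 76.13 CPM with doxycycline, and in TC71 it was 2.979 to 3.462 CPM and 71.42 to 72.94 CPM. The number of these markers at the floor was 2 and 0 in EW8 and 6 and 2 in TC71. Markers of fibroblasts and pericytes, which carry PDGF receptors, summed to 116.4 to 128 CPM and 115.9 to 125.9 CPM in EW8 and to 225.5 to 239.9 CPM and 268.2 to 285.1 CPM in TC71. Members of this list moved both ways: of 8, 1 was called higher and 1 lower in EW8, with 3 past the adjusted p as lower, and 3 were called higher and 2 lower in TC71. At the floor was 1 of them, in TC71 vehicle cells. Epithelial markers, 7 in all with 2 at the floor in EW8 and 3 in TC71, had 4 tested, of which 3 were called higher in EW8 and 1 in TC71, and summed to 9.856 to 10.24 and 51.08 to 55.38 CPM in EW8 and to 176.6 to 215.6 and 227.9 to 241.7 CPM in TC71. Leukocyte markers were at most 0.6825 CPM in TC71 and 65.14 to 80.45 CPM in EW8, with 4 of 8 at the floor in both EW8 groups and 7 and 5 of 8 in the TC71 groups. The marker lists were also chosen with earlier results of these data known, so their counts are a description. The part of other cell types in the growth factor results was not tested.

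FGF2 (ENSG00000138685.15, chr4:122826708-122898236, plus strand), a heparin-binding mitogen, rose in both lines. The EW8 libraries were at 8.17, 7.85 and 9.13 CPM with vehicle and at 19.5, 20.4 and 19.4 CPM with doxycycline. The TC71 libraries were at 5.71, 5.12 and 5.45 CPM and at 12.1, 15.4 and 14.4 CPM. No vehicle library reached any doxycycline library of either line. FGF2 rose by a log2 of 1.24 in EW8 (SE 0.12, adjusted p 9.63e-08) and 1.37 in TC71 (SE 0.12, adjusted p 2.86e-08), and the difference between the responses was 0.13 (95% interval -0.22 to 0.48, adjusted p 0.674). Between the lines FGF2 differed, TC71 minus EW8, by -0.63 under vehicle (adjusted p 0.000193) and by -0.50 under doxycycline (adjusted p 0.00107), both under the fold limit. Of its exon bases, 11.9% overlap NUDT6 on the opposite strand, and reads there were left out of both genes. NUDT6 itself, with log2 values of -0.59 in EW8 and -0.54 in TC71, was not called (adjusted p 0.136 and 0.177).

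Among the PDGF ligands, PDGFC (ENSG00000145431.10, chr4:156760454-156971394, minus strand) rose in both lines from different starting levels. EW8 libraries were at 5.82, 6.80 and 6.57 CPM with vehicle and 17.4, 17.2 and 16.9 CPM with doxycycline. TC71 libraries were at 14.5, 22.9 and 24.3 CPM with vehicle, the lowest being the library that stood apart, and at 49.3, 54.0 and 52.5 CPM with doxycycline. The groups did not overlap within either line, and the TC71 doxycycline libraries were the highest of the 12. PDGFC rose by a log2 of 1.42 in EW8 (SE 0.15, adjusted p 2.68e-07) and 1.33 in TC71 (SE 0.14, adjusted p 2.04e-07), with a difference of -0.09 (95% interval -0.51 to 0.33, adjusted p 0.834). Without TC71 vehicle replicate 1 the TC71 response was 1.06 (adjusted p 2.81e-10) and the difference -0.41 (adjusted p 0.0185), which was still under the fold limit. PDGFC was higher in TC71 than in EW8 by 1.68 (SE 0.15, adjusted p 1.16e-08) under vehicle and by 1.59 (SE 0.14, adjusted p 1.15e-08) under doxycycline, and the vehicle value was 1.99 (adjusted p 9.23e-16) without TC71 vehicle replicate 1.

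PDGFD (ENSG00000170962.12, chr11:103907186-104164379, minus strand) fell in TC71. There it was at 39.6, 44.7 and 41.8 CPM with vehicle and at 18.9, 21.5 and 20.6 CPM with doxycycline. In EW8 it was at 1.08, 1.00 and 1.29 CPM with vehicle and at 1.75, 0.593 and 1.64 CPM with doxycycline. The TC71 groups were well apart, whereas EW8 doxycycline replicate 2 lay below all 3 vehicle libraries and the other doxycycline libraries above them. PDGFD fell by 1.05 on the log2 scale in TC71 (SE 0.18, adjusted p 7.37e-05), and its EW8 value was 0.23 (95% interval -0.33 to 0.79, adjusted p 0.532). The responses differed by -1.28 (SE 0.32, adjusted p 0.00789), and by -1.13 (adjusted p 0.0567) with limma-voom. The fall in TC71 lay close to the fold limit and stood at -1.0 without TC71 doxycycline replicate 1 and at -1.17 without TC71 vehicle replicate 1, where the difference of the responses was -1.44 (adjusted p 0.000526). Of the genes above the floor in both lines PDGFD differed most between them: it was 37.0-fold higher in TC71 under vehicle (log2 5.21, SE 0.23, adjusted p 7.81e-13, and 5.36 without TC71 vehicle replicate 1) and 15.3-fold higher under doxycycline (log2 3.93, SE 0.22, adjusted p 2.51e-11).

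PDGFA and PDGFB, the classical PDGF chains, were higher in EW8 than in TC71. PDGFA (ENSG00000197461.13, chr7:497258-520296, minus strand) was at 2.14, 1.79 and 2.53 CPM in EW8 vehicle cells and at 4.05, 3.60 and 3.04 CPM with doxycycline. In TC71 it had 1, 2 and 2 counts with vehicle, which is at the floor, and 0.461, 0.430 and 0.296 CPM with doxycycline. All EW8 libraries exceeded all TC71 libraries, and within each line the doxycycline libraries were above the vehicle libraries. The EW8 log2 fold change of 0.72 (SE 0.26, 95% interval 0.17 to 1.28, adjusted p 0.0338) passed the adjusted p but not the fold limit. In TC71 PDGFA was at least 3.4-fold higher with doxycycline, taking 6 counts per vehicle library as the floor (adjusted p 7.01e-06, edgeR quasi-likelihood test). PDGFA was at least 18.5-fold lower in TC71 than in EW8 under vehicle, and the log2 difference, TC71 minus EW8, was -3.17 (SE 0.31, adjusted p 5.2e-08) under doxycycline.

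PDGFB (ENSG00000100311.16, chr22:39223359-39244751, minus strand) was at 0.406, 0.480 and 0.862 CPM in EW8 vehicle cells and at 1.90, 1.15 and 1.55 CPM with doxycycline. In TC71 no count was found in the vehicle libraries and 4 counts in each doxycycline library, so no fold is given. The EW8 groups did not overlap, and the log2 fold change was 1.38 (SE 0.46, adjusted p 0.0223). This call was lost in 4 of the fits without 1 library: the adjusted p was 0.0853 and 0.0749 without EW8 vehicle replicate 1 or 2, and 0.11 and 0.0544 without EW8 doxycycline replicate 1 or 3. PDGFB was at least 5-fold lower in TC71 than in EW8 under vehicle and at least 10.5-fold lower under doxycycline. PDGFA, PDGFB and VEGFC passed the filter on low counts through groups in which they were higher, PDGFB through EW8 alone, whereas the other 7 genes met its minimum in all 12 libraries.

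**Figure D2:**
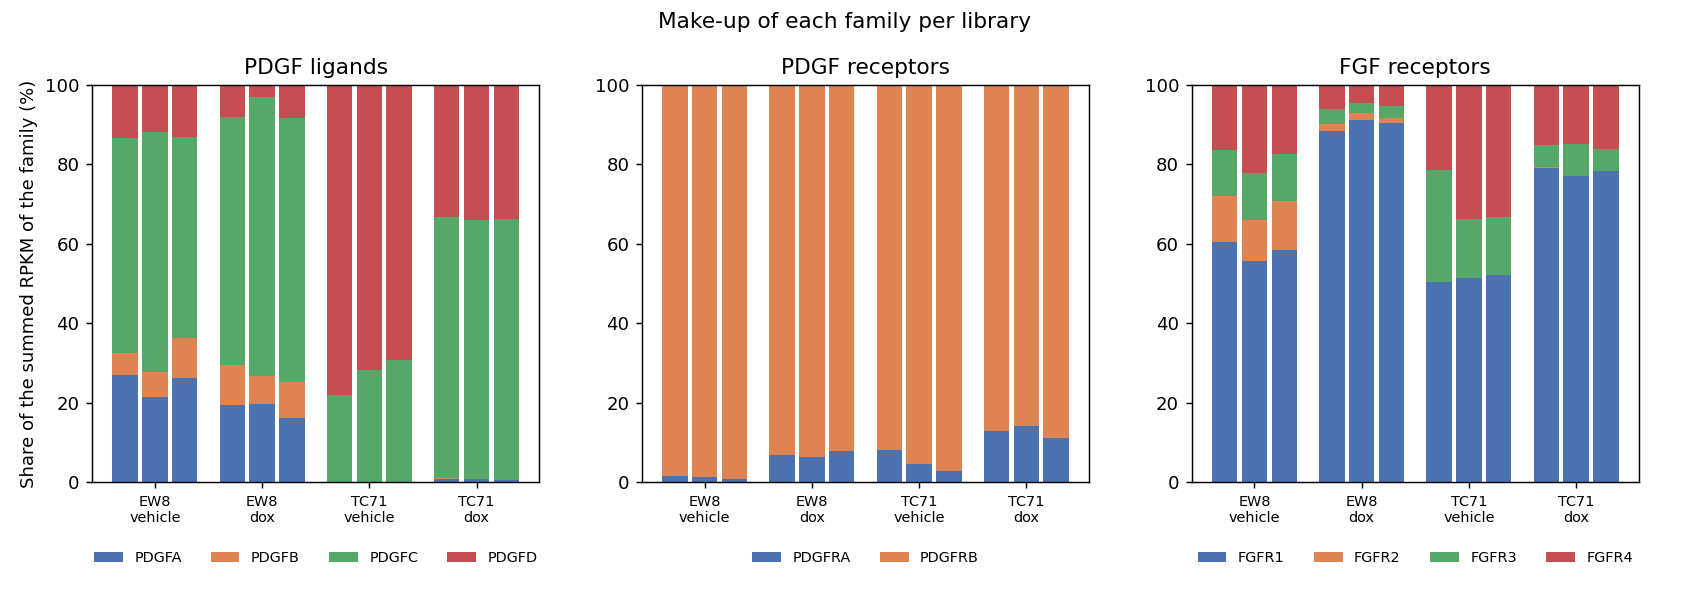
Share of the summed level per length (RPKM, in percent) that each gene takes of its family in every library, 3 bars a group. In TC71 the larger share of the PDGF ligands belonged to PDGFD with vehicle and to PDGFC with doxycycline, and FGFR1 took a larger share of the FGF receptors with doxycycline in both lines.

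Levels per exon length (RPKM, the CPM of a gene divided by its exon length in kilobases) put the ligands side by side. The length is that of all exons counted for a gene, 13842 bases for FGFR1 and 4266 for PDGFD. Shares, ranks and ratios between genes here and below depend on it, and the SD over libraries does not cover that. In TC71 vehicle cells PDGFD made up 73.1 ± 4.57% of the summed RPKM of the 4 PDGF ligands and PDGFC 26.9 ± 4.56% (SD, n = 3). With doxycycline PDGFC made up 65.5 ± 0.363% and PDGFD 33.6 ± 0.429%. The pair thus stood in opposite order in every library, with PDGFD at 69.2% to 78.1% with vehicle, 33.2% to 34% with doxycycline, and at 70.6% with vehicle without replicate 1. The sum over the 4 ligands was 13.54 ± 1.45 RPKM with vehicle and 14.17 ± 0.73 RPKM with doxycycline. In EW8 PDGFC held 55.2 ± 4.97% with vehicle and 66.3 ± 3.96% with doxycycline, while the sum was 2.082 ± 0.21 RPKM and 4.65 ± 0.32 RPKM. PDGFA took 24.9 ± 3.01% and 18.4 ± 2.04% there, and PDGFD 12.7 ± 0.843% and 6.61 ± 2.99%. The vehicle and doxycycline shares did not overlap for PDGFC in either line, and an exact two-sided permutation test gave p = 0.1 for each, the smallest that 3 against 3 libraries allow. The same p was given by all 10 such tests over the 3 families, and it was 0.1 after Benjamini-Hochberg adjustment.

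Of the PDGF receptors, PDGFRB (ENSG00000113721.13, chr5:150113837-150155872, minus strand) fell in both lines. EW8 libraries were at 49.0, 52.8 and 51.4 CPM with vehicle and at 24.5, 25.1 and 22.8 CPM with doxycycline. TC71 libraries were at 41.5, 65.3 and 72.4 CPM with vehicle and at 23.8, 21.9 and 21.1 CPM with doxycycline. All 6 doxycycline libraries lay below all 6 vehicle libraries, and the lowest vehicle library was the TC71 replicate that stood apart. On the log2 scale PDGFRB changed by -1.08 in EW8 (SE 0.14, adjusted p 4.06e-06) and by -1.42 in TC71 (SE 0.14, adjusted p 1.2e-07), and the responses differed by -0.34 (95% interval -0.75 to 0.07, adjusted p 0.263). Without TC71 vehicle replicate 1 the TC71 value was -1.71 and the difference -0.67 (adjusted p 3.34e-05). The EW8 value was close to the fold limit and stood at -1.0 without EW8 doxycycline replicate 3. Between the lines PDGFRB differed by -0.12 under doxycycline (adjusted p 0.5), TC71 minus EW8. Under vehicle it differed by 0.23 (adjusted p 0.16) with all libraries and by 0.54 (adjusted p 1.1e-06), still under the fold limit, without TC71 vehicle replicate 1.

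PDGFRA (ENSG00000134853.11, chr4:54229097-54298247, plus strand), the receptor for PDGF-A and PDGF-C, rose in EW8. It was at 1.08, 0.872 and 0.557 CPM in EW8 vehicle cells and at 2.43, 2.31 and 2.70 CPM with doxycycline. In TC71 it was at 5.08, 4.20 and 2.93 CPM with vehicle and at 4.85, 4.95 and 3.62 CPM with doxycycline. The EW8 groups were apart, and the TC71 groups overlapped. PDGFRA rose by a log2 of 1.58 in EW8 (SE 0.28, adjusted p 0.000128), and its TC71 value was 0.13 (95% interval -0.38 to 0.65, adjusted p 0.706), and the responses differed by -1.44 (SE 0.37, adjusted p 0.00928). Without TC71 vehicle replicate 1 the TC71 value was 0.24 (adjusted p 0.49) and the difference -1.38 (adjusted p 0.00601). PDGFRA was higher in TC71 by 2.29 (SE 0.27, adjusted p 7.53e-07) under vehicle, and by 0.85 (SE 0.25, adjusted p 0.00662), under the fold limit, with doxycycline. Of its exon bases 15.8% are shared with a readthrough gene on the same strand (ENSG00000282278), and reads there were left out. Its share of the summed RPKM of both receptors was 1.19 ± 0.403% and 7.04 ± 0.857% in EW8 and 5.21 ± 2.74% and 12.8 ± 1.53% in TC71, with vehicle and doxycycline, the TC71 vehicle share being 8.24% in replicate 1 and 3.69% on average in the others. PDGFRB was the higher of both receptors per length in each group, by 83.2-fold and 13.3-fold in EW8 and by 20-fold and 6.8-fold in TC71, with 26.3-fold in TC71 vehicle cells without replicate 1, while the summed level was 7.244 and 3.635 RPKM in EW8 and 8.785 and 3.582 RPKM in TC71.

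FGFR1 (ENSG00000077782.20, chr8:38400215-38468834, minus strand), a main receptor of FGF2, was higher with doxycycline in both lines and rose past the fold limit in EW8. EW8 libraries were at 161, 166 and 167 CPM with vehicle and at 467, 454 and 442 CPM with doxycycline. TC71 libraries were at 116, 131 and 126 CPM with vehicle and at 237, 232 and 230 CPM with doxycycline. The 4 groups did not overlap, and EW8 doxycycline cells were the highest. FGFR1 rose by a log2 of 1.47 (SE 0.05, adjusted p 8.56e-14) in EW8. In TC71 it was higher by 0.91 (SE 0.05, adjusted p 6.85e-11), which is under the fold limit, and by 0.78 without TC71 vehicle replicate 1. The responses differed, TC71 minus EW8, by -0.56 (SE 0.07, adjusted p 1.99e-05), also under the limit, and by -0.73 (adjusted p 1.29e-09) without that library. The line difference of FGFR1, TC71 minus EW8, was -0.40 (adjusted p 2.1e-06) under vehicle, or -0.25 without TC71 vehicle replicate 1, and -0.96 (adjusted p 1.53e-11) under doxycycline, and the latter lay close to the fold limit. It passed that limit with upper-quartile scaling (-1.04), library size alone (-1.01), at least 10 counts in every library (-1.02) and counts halved (-1.04), and also at -1.02 without EW8 vehicle replicate 3 or TC71 vehicle replicate 3 and at -1.06 without EW8 doxycycline replicate 3.

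FGFR4 (ENSG00000160867.14, chr5:177086886-177098144, plus strand), a receptor that FGF19 engages with a co-receptor, was lower with doxycycline in both lines without passing the fold limit. EW8 libraries were at 15.3, 22.9 and 17.4 CPM with vehicle and at 11.4, 8.06 and 9.30 CPM with doxycycline. TC71 libraries were at 17.1, 30.1 and 28.1 CPM with vehicle and at 15.9, 15.7 and 16.5 CPM with doxycycline. Vehicle and doxycycline libraries did not overlap within either line, and in TC71 vehicle replicate 1 was the vehicle library nearest to the doxycycline libraries. The values on the log2 scale were -0.95 in EW8 (SE 0.19, adjusted p 0.000409) and -0.65 in TC71 (SE 0.18, adjusted p 0.00716), with a difference of 0.30 (95% interval -0.25 to 0.85, adjusted p 0.489). Without TC71 vehicle replicate 1 the TC71 value was -0.94 and the difference -0.04. In EW8 the value passed the limit at -1.07 without vehicle replicate 1 and at -1.05 without doxycycline replicate 1. FGFR4 was higher in TC71 than in EW8 by 0.74 (SE 0.19, adjusted p 0.00222) under doxycycline and by 0.44 (SE 0.18, adjusted p 0.0452) under vehicle, where TC71 vehicle replicate 1 lay within the range of the EW8 libraries and the other TC71 libraries above it. Without that replicate the vehicle difference was 0.76 (adjusted p 2.28e-05).

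Per length, FGFR1 held the largest share of the FGF receptor transcripts in each group, and more of it with doxycycline. Its share of the summed RPKM of FGFR1 to FGFR4 was 58.2 ± 2.35% with vehicle and 89.9 ± 1.39% with doxycycline in EW8, and 51.3 ± 0.792% and 78.2 ± 0.984% in TC71 (SD, n = 3). The share of FGFR4 was 18.7 ± 2.98% and 5.42 ± 0.769% in EW8 and 29.4 ± 7.09% and 15.4 ± 0.628% in TC71, where the vehicle share was 21.3% in replicate 1 and 33.5% on average in the others. The summed level was 20.44 and 36.53 RPKM in EW8 and 17.51 and 21.51 RPKM in TC71. FGFR1 stood 3.09-fold above FGFR4 with vehicle and 16.5-fold with doxycycline in EW8, and 1.73-fold and 5.07-fold above it in TC71, with 1.54-fold in TC71 vehicle cells without replicate 1.

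**Figure D3:**
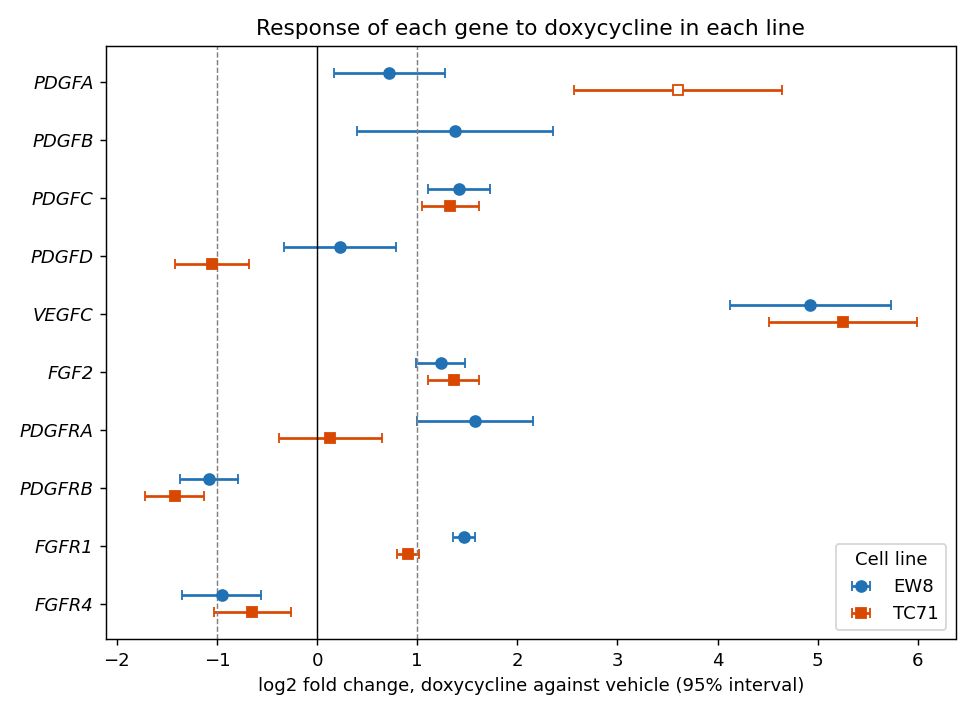
Log2 fold change of each gene with doxycycline against vehicle, with its 95% interval, in EW8 (circles) and TC71 (squares). Dashed lines mark the fold limit of 1 in either direction, the open square is PDGFA in TC71, whose vehicle group is at the floor, and PDGFB has no TC71 value; VEGFC lies farthest to the right among the genes above the floor, near 5 in both lines.

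The order of the genes by level per length differed between the lines. In EW8 vehicle cells FGFR1 came first at 11.87 ± 0.226 RPKM, followed by PDGFRB at 7.158 ± 0.268 and FGFR4 at 3.841 ± 0.811, and FGF2 and PDGFC, at 1.237 ± 0.098 and 1.144 ± 0.092, did not differ beyond their spread. PDGFA, PDGFD, PDGFB, PDGFRA and VEGFC followed between 0.519 and 0.048 RPKM. In TC71 vehicle cells PDGFD at 9.856 ± 0.594, FGFR1 at 8.978 ± 0.535 and PDGFRB at 8.367 ± 2.27 RPKM overlapped in their spread, and without replicate 1 they were at 10.1, 9.27 and 9.64 RPKM. With doxycycline FGFR1 was at the top of both lines, at 32.83 ± 0.916 RPKM in EW8 and 16.83 ± 0.257 in TC71, and the next was PDGFRB at 3.38 ± 0.170 in EW8 and PDGFC at 9.284 ± 0.433 in TC71. VEGFC reached 1.424 ± 0.068 RPKM in EW8 and 2.769 ± 0.227 in TC71, which is above PDGFA, PDGFB and PDGFRA in both lines.

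The direct test of the difference between the responses called 1 of the 9 genes with a fold higher (PDGFA) and 2 lower (PDGFD and PDGFRA), against 4.18% and 2.87% of all tested genes. The PDGFA call rests on a fitted value, because its TC71 vehicle group was at the floor. Between the lines under vehicle, 3 of the 10 genes were called higher in TC71 (PDGFC, PDGFD and PDGFRA) and 2 lower (PDGFA and PDGFB), where 11.6% and 18.9% of all genes were called. Under doxycycline 2 were higher (PDGFC and PDGFD) and the same number lower (PDGFA and PDGFB), against 12.6% and 18.4%. With no fold limit the difference of responses passed as higher for 1 gene and as lower for 3, with FGFR1 added, against 12.2% and 7.07% of all genes. Between the lines 4 passed as higher and 4 as lower under vehicle, against 28.2% and 33.5%, and 5 and 4 under doxycycline, against 30.2% and 32.3%. The libraries of the lines did not overlap for 3 genes higher and 4 lower in TC71 under vehicle, where 29.6% and 35.2% of all genes did not, and for 5 and 4 under doxycycline, where 33.7% and 35.9% did not. These comparisons share libraries with those of doxycycline against vehicle and are given side by side for that reason.

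Other genes of the same pathways were taken from lists by their role, which were chosen with earlier results of these data known. Each count of calls is thus a description, to be read against the share of all tested genes called with doxycycline. These shares, higher and lower, were 11.4% and 3.38% in EW8 and 12.3% and 3.67% in TC71. Of 21 other FGF family genes, listed as ligands, 9 passed the filter. The list also holds FGF11, FGF12, FGF13 and FGF14, whose proteins are not secreted ligands. Of the 9, 5 were called higher in EW8 and 3 in TC71, and none lower. FGF1, a ligand for all FGF receptors, was at 0.248, 0.349 and 0.0539 CPM in EW8 vehicle cells and at 71.2, 67.4 and 67.6 CPM with doxycycline, which is 329-fold higher (log2 8.36, SE 0.21, adjusted p 6.74e-16). In TC71 it was at 0.420, 0.161 and 0.116 CPM and at 195, 188 and 181 CPM, which is 811-fold higher (log2 9.66, SE 0.2, adjusted p 3.79e-17). The FGF1 vehicle counts were 11, 16 and 3 in EW8 and 22, 10 and 6 in TC71, so both folds rest on few read pairs. Per length FGF1 was below FGF2 with vehicle, at 0.04112 RPKM against 1.237 RPKM in EW8 and 0.04408 against 0.8012 in TC71. With doxycycline it was above FGF2, at 13.03 ± 0.409 RPKM against 2.916 ± 0.08 RPKM of FGF2 in EW8, and at 35.62 ± 1.37 against 2.066 ± 0.251 in TC71. In EW8 FGF5, at the floor with vehicle, was higher by at least 4.88-fold, and in TC71 it was at the floor in both groups. FGF5 met the filter minimum in doxycycline libraries alone. FGF18 rose by 4.74 (SE 0.65, adjusted p 8.33e-06) in EW8, from 0, 2 and 10 counts, and by 3.35 (SE 0.58, adjusted p 0.000102) in TC71, from 14, 12 and 2 counts. It entered the test through the doxycycline libraries, in which it was higher, so its calls lean on that filter and on few read pairs.

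Among 9 tested genes of the other PDGF and VEGF ligands and receptors, 3 were higher and 1 lower in EW8, and 2 higher and 1 lower in TC71, against 12.3% and 3.67% of all genes in TC71 and 11.4% and 3.38% in EW8. NRP2, the neuropilin that binds VEGF-C, stood at least 44.4-fold higher with doxycycline in EW8 and did not pass in TC71 (adjusted p 0.052). NRP2 met the filter minimum in doxycycline libraries alone. NRP1 had a log2 value of 0.15 in EW8 (adjusted p 0.119) and rose from 16.9, 18.6 and 21.6 CPM to 282, 278 and 281 CPM in TC71 (log2 3.88, SE 0.08, adjusted p 3.45e-17). PGF, a ligand of the VEGF receptor FLT1, rose by a log2 of 1.31 in EW8 (SE 0.37, adjusted p 0.0076) and 1.57 in TC71 (SE 0.33, adjusted p 0.000665), where vehicle replicate 1 was at 91.1 CPM and the other vehicle libraries at 24.1 and 24.4 CPM. FLT4, the VEGF-C receptor, was singled out after its values were seen: its log2 fold change was -1.15 in EW8 (adjusted p 1.05e-05) and -1.56 in TC71 (adjusted p 9.85e-07). Of 7 tested FGF receptor and binding partner genes, 1 was higher and 2 lower in EW8, and 2 higher and 1 lower in TC71, against 11.4% and 3.38% of all genes in EW8 and 12.3% and 3.67% in TC71. FGFBP1, a carrier that releases FGF from matrix, was at least 2.84-fold higher with doxycycline in EW8 and, in TC71, at least 2.03-fold. It had no count in the vehicle libraries and entered the test through doxycycline libraries alone, so its calls lean on that filter. KL, a co-receptor for endocrine FGFs, rose by 1.89 (SE 0.27, adjusted p 1.13e-05) in TC71 and by 0.64 (adjusted p 0.0249), under the fold limit, in EW8. FGFR2 fell by 1.87 (SE 0.19, adjusted p 6.63e-07) in EW8, and both TC71 groups lay at the floor.

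Of 8 genes for proteases, or their cofactors, that take part in cutting latent PDGF-C, PDGF-D or VEGF-C, 3 were called higher in EW8, and 4 higher and 1 lower in TC71, against 11.4% of all genes higher in EW8 and 12.3% higher and 3.67% lower in TC71. PLAU, the urokinase that can release PDGF-D, rose by a log2 of 9.09 in EW8 (SE 0.22, adjusted p 3.76e-16) and 6.34 in TC71 (SE 0.21, adjusted p 2.15e-14). Its vehicle libraries held 6, 4 and 21 counts in EW8 and 8, 28 and 15 in TC71, so these values rest on few read pairs. PLAT, the tissue plasminogen activator that can release PDGF-C, had a log2 rise of 3.68 in EW8 (SE 0.12, adjusted p 1.73e-14) and 4.72 in TC71 (SE 0.13, adjusted p 1.45e-15). ST14, which encodes matriptase, was at least 54.9-fold higher in TC71 and did not pass in EW8 (adjusted p 0.0744), where the libraries overlapped. ST14 met the filter minimum in doxycycline libraries alone.

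Heparan sulfate proteoglycans, which hold FGFs at the cell surface, had 2 of 11 tested genes higher in EW8 and 6 in TC71, and none lower, against 11.4% of all genes higher in EW8 and 12.3% in TC71. SDC4 rose by a log2 of 3.95 in EW8 (SE 0.09, adjusted p 2.34e-16) and 3.74 in TC71 (SE 0.09, adjusted p 3.15e-16). SDC1 rose by 2.51 in EW8 (SE 0.16, adjusted p 4.12e-10) and by 6.0 in TC71 (SE 0.19, adjusted p 1.72e-14). Of 14 receptor adaptors and proximal effectors, 1 was called, GAB2, which docks signalling proteins, higher by a log2 of 4.08 in EW8 (SE 0.13, adjusted p 9.44e-15) and 2.43 in TC71 (SE 0.11, adjusted p 1.62e-12). Of 15 feedback and target genes of the ERK cascade, 9 were higher in EW8 and none lower, and 7 were higher and 3 lower in TC71, against 11.4% and 3.38% of all genes in EW8 and 12.3% and 3.67% in TC71. PHLDA1 rose by 6.96 in EW8 (SE 0.23, adjusted p 3e-14) and by 6.07 in TC71 (SE 0.19, adjusted p 1.31e-14). DUSP5, which encodes an ERK phosphatase, rose by 2.98 in EW8 (SE 0.11, adjusted p 1.1e-13) and by 4.27 in TC71 (SE 0.11, adjusted p 6.12e-16). Several of these feedback genes are also known targets of other pathways, and receptor activity was not measured.

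**Figure D4:**
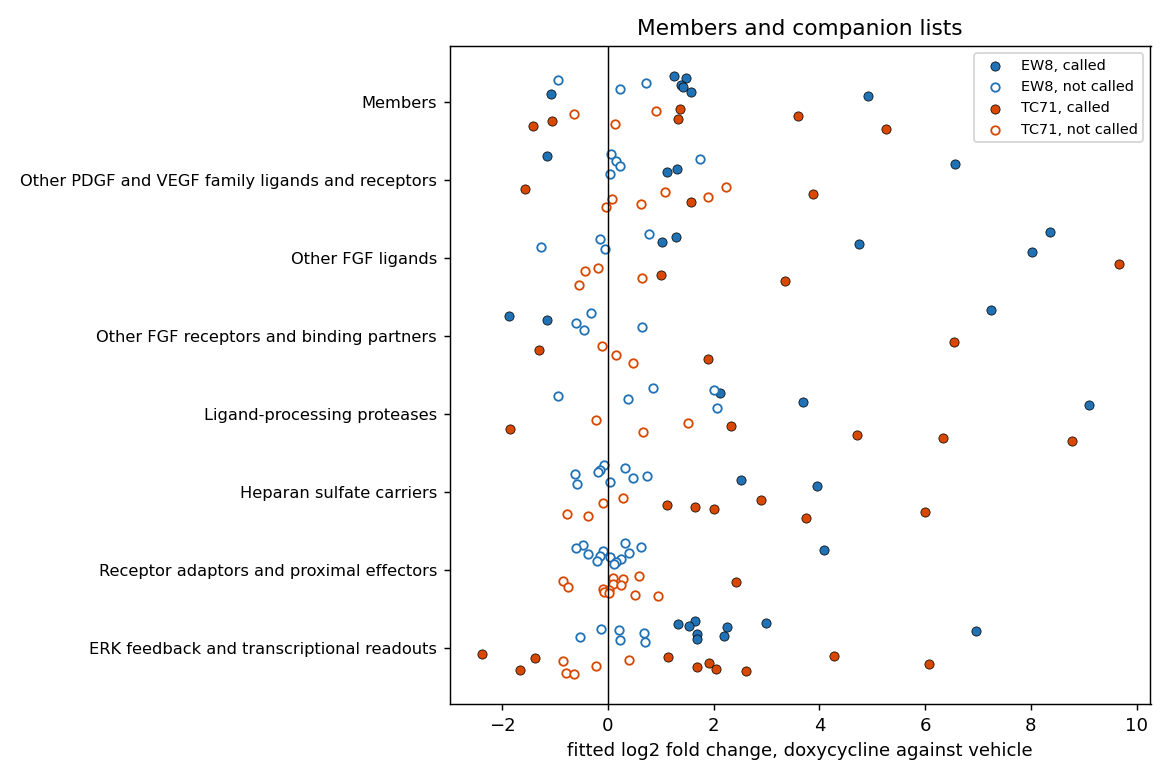
Fitted log2 fold change with doxycycline of the 10 genes and of each list of related genes, in EW8 (blue) and TC71 (orange), with 1 point a gene, filled where called and open where not. Genes at the floor in both groups are left out, and a fitted value with 1 group at the floor is no bound. The adaptor list sits near 0 apart from GAB2. The largest called changes of the FGF ligand, protease, heparan sulfate and feedback lists lie to the right, and in TC71 3 feedback genes and 1 protease gene were called lower.

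The most similar profile over the 12 libraries was sought for each of the 10 genes among all 21012 other tested genes, by Pearson correlation of log2 CPM. For the ligand genes it was PTK2 for PDGFA (r = 0.997), DMXL1 for PDGFB (0.991), COPA for PDGFC (0.991), ACADM for PDGFD (0.992), ANTXR2 for VEGFC (0.992) and the unnamed gene ENSG00000223612 for FGF2 (0.994). For the receptor genes it was RASL11B for PDGFRA (0.971), MACROH2A2 for PDGFRB (0.988), ETS2 for FGFR1 (0.995) and PLEKHJ1 for FGFR4 (0.971). Among the 10 genes themselves, FGF2 and FGFR1 correlated at 0.952 and PDGFA and PDGFB at 0.978. The 12 points share 2 lines and 2 treatments, so these values describe group patterns and carry no test.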

How the data were processed

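RNA-seq was performed on 12 libraries, 3 of each group, prepared from polyadenylated RNA with a stranded kit. The authors checked reads with FastQC, aligned them with STAR to hg38 and counted them on GENCODE 29 genes with featureCounts 2.0.1. The deposited values were raw whole-number counts per gene. Per the file headers, featureCounts was run without settings for pairing, strandedness, multi-mapping or overlaps, so each mate was counted (67.3% to 69.8% of counts from 20 to 199 were even, by library), strand was not used, and reads on more than 1 gene or place were left out. Gene identifiers were given symbols for 58207 of 58721 genes (99.1%).

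Counts were tested with edgeR 4.0.16 in R 4.3.3: filterByExpr (21013 genes, 99.95% of counts), TMM scaling (a trimmed mean of log ratios), and 1 quasi-likelihood fit of all 12 libraries with the 4 groups as levels. Benjamini-Hochberg adjustment ran over all genes tested. The study used the same thresholds with DESeq2. DESeq2 1.42.0, limma-voom 3.58.1, other scalings, filters, a replicate block and fits without each library were run as alternatives. Shares and ratios without TC71 vehicle replicate 1 were added after seeing the data. The scripts were tested on simulated data. RPKM values are TMM-scaled CPM per kilobase of the exon length in the deposited table. Where 1 group was at the floor of 6 counts in each library (0.09663 to 0.1454 CPM), a fold is a bound, and floors cover counting error only. Errors are SD over libraries or SE of a log2 fold change. The 10 genes and all lists were chosen with earlier results of these data known. Genes named from the related lists were the 2 with the largest absolute log2 fold change among those called in each line and not at the floor in both groups, and the most similar gene was named for each of the 10. Knockdown experiments of the study were not analysed here.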

Additional observations from a re-analysis of the deposited data

Results flagged for a closer look

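Of the 9 genes with a fold in both lines, 3 responded differently in TC71 and EW8 by the test of the difference itself (edgeR quasi-likelihood test, TC71 minus EW8, Benjamini-Hochberg adjustment over all genes tested). For PDGFA the difference was 2.88 (adjusted p 0.00139), a fitted value that depends on the prior count because the TC71 vehicle libraries are at the floor, and 2.55 without TC71 vehicle replicate 1. For PDGFD it was -1.28 (adjusted p 0.00789), with PDGFD lower in 3 of 3 TC71 doxycycline libraries and above the EW8 vehicle libraries in 2 of 3 EW8 doxycycline libraries. For PDGFRA it was -1.44 (adjusted p 0.00928), with PDGFRA higher in 3 of 3 EW8 doxycycline libraries and overlapping groups in TC71.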

How the results depend on the processing

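Over 24 alternative settings, 12 of which left out a library, 1083 of 1129 log2 fold changes of the 10 genes kept their direction and their side of the threshold, 15 no longer passed it, 25 newly passed it and 6 changed sign. None of the values that changed sign had been called. Part of this tally follows from the threshold itself: dropping the fold limit can only add calls, and the test against a 2-fold change is stricter. Over the fits without 1 library, PDGFD in EW8 ran from 0.00 (without doxycycline replicate 1) to 0.63 and PDGFRA in TC71 from -0.09 (without vehicle replicate 3) to 0.27. The difference of responses ran from -0.55 (without EW8 vehicle replicate 1) to 0.71 for VEGFC, which was at -0.01 without TC71 vehicle replicate 1. It ran from -0.03 (without EW8 vehicle replicate 3) to 0.22 for FGF2 and from -0.04 (without TC71 vehicle replicate 1) to 0.46 for FGFR4. The number of the 10 genes called ranged, over fits without 1 library, from 5 to 7 in EW8, 5 to 6 in TC71, 3 to 3 for the difference of responses, 5 to 6 between lines under vehicle and 4 to 5 under doxycycline. The numbers of all genes called ranged from 2945 to 3364, 3288 to 3433, 1324 to 1637, 6308 to 6624 and 6332 to 6841 in the same order. With at least 10 counts required in every library, which leaves fewer genes to test and takes out VEGFC, PDGFA and PDGFB, 1600, 1909, 966, 3566 and 3464 genes were called, where the values reported were 3112, 3355, 1481, 6420 and 6516, and 3 of the 10 genes instead of 5 between lines under vehicle. A test against a 2-fold change called 1828 genes in EW8, 2032 in TC71 and 578 for the difference. Of the 10 genes it called 3 instead of 7 in EW8 and 1 instead of 3 for the difference. By that test PDGFB, PDGFRA, PDGFRB and FGF2 no longer passed in EW8 (adjusted p 0.557, 0.0705, 0.736 and 0.0831). PDGFD no longer passed in TC71 (adjusted p 0.928), nor did PDGFD and PDGFRA for the difference (adjusted p 0.864 and 0.606). With no fold limit 9216, 9578, 4057, 12974 and 13135 genes passed, and 8 and 9 of the 10 genes between lines under vehicle and doxycycline. The difference for PDGFD did not pass with limma-voom (-1.13, adjusted p 0.0567), and the cause was not tested. Same-numbered libraries showed correlations of -0.028 to 0.018 in their deviations, and the replicate numbers were not used as a pairing. Between the lines the same-numbered library was the closest in each case, at correlations of 0.004 to 0.018. A shared culture or batch was not tested. With a replicate block 6 of the 10 genes were called in EW8, where PDGFB had an adjusted p of 0.0562 (log2 1.42), and 2968 genes in all. At this depth PDGFB in TC71 and PDGFA in TC71 vehicle cells lie at the floor.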
